A study of Mus musculus with 8 samples.

Results

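Chromogranins, secretogranins and the proteins around them fill and wall the dense-core granules in which islet cells store hormone. Their transcripts were followed here as a set of 10 genes, chosen by symbol from a list of granule cargo and membrane proteins: Chga, Chgb, Scg2, Scg3, Vgf, Ptprn, Ptprn2, Sv2a, Slc18a2 and Nnat. All 10 were found among the 55414 gene identifiers counted, and all 10 passed the filter on low counts that left 20509 genes for testing. RNA was sequenced from pancreatic islets of C57BL/6 mice at 5 weeks of age, in 8 libraries. The 4 libraries called TG had the genotype Ins2 cre(+/-) ATF4 TG(+/-), where Ins2 cre supplies Cre recombinase and takes its name from the insulin 2 gene. The 4 libraries called WT were Ins2 cre(-/-) ATF4 TG(+/-), so they carried the ATF4 transgene without Cre. ATF4 is a transcription factor made when the integrated stress response slows translation, and the series description calls the transgene beta-cell-specific. Since the transgene is present in both groups and Ins2 cre in TG alone, effects of the driver itself and of the transgene it switches cannot be told apart.

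Granins are acidic secretory proteins that condense with hormone in the forming granule and are cut into smaller peptides there. In islets they are made by beta cells and by the other endocrine cell types, so they report on secretory granules as a class rather than on insulin cells alone. The granule membrane carries IA-2 and IA-2 beta, encoded by Ptprn and Ptprn2, which resemble receptor tyrosine phosphatases and are autoantigens in type 1 diabetes. It also carries transporters such as the vesicular monoamine transporter. Neuronatin, the product of Nnat, is a small membrane protein best known from the endoplasmic reticulum, so its place among granule membrane proteins is loose.

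Depth ranged from 16521087 to 22499999 gene counts over the 8 libraries, and each member had at least 85 counts in each library. The labels do not state that each sample is a different animal, so p-values measure the spread between these samples, which may be technical. The islet label was checked against the hormone genes: levels in CPM, counts scaled to library size, averaged 33580 in TG libraries and 69622 in WT libraries for Ins2, 33851 and 25332 for Gcg, 3674 and 3882 for Sst, and 6215 and 5625 for Ppy. Atf4 itself was lower in TG libraries, at 261 ± 19.8 CPM against 352 ± 21.1 CPM in WT libraries (SD, n = 4 each). The transgene's transcripts need not be counted under Atf4, so directions are given for libraries as labelled. TG replicate 1 held the largest summed level of 10 acinar markers, 43738 CPM, and WT replicate 4 the smallest, 1354 CPM. These were also the libraries with the largest shares of reads assigned to no feature in the counting. Results that change without either library are given with that value.

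Promoter windows of the members are shown first, as a description of the letters at their starts. Whether these letters bear on the changes given below was not tested. RefSeq windows of 300 bases, from 250 before to 50 after the start, were at hand for 9 of the 10 members on build GRCm38.p6, and Vgf has no window here. Ptprn has a pair of windows, of which the one shown starts further from the gene body. The windows were searched on both strands for TGACGTCA, the full cyclic AMP response element (CRE), and for its core TGACG, which the full element contains. Bases of the core and of the full element are in capitals, and in Scg2 so is GGTGCTGAA, the reverse complement of TTCAGCACC, a part of the element bound by the repressor REST. Chga is on chromosome 12 at chr12:102554691-102554990 (plus strand), Chgb on chromosome 2 at chr2:132781392-132781691 (plus strand) and Scg2 on chromosome 1 at chr1:79439977-79440276 (minus strand), each written 5′ to 3′ along the gene.

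Chga: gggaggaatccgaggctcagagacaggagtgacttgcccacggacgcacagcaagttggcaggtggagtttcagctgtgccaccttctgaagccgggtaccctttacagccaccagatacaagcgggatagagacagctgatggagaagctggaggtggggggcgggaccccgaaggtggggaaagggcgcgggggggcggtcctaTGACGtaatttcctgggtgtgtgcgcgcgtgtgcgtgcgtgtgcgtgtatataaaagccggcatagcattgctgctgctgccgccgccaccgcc
Chgb: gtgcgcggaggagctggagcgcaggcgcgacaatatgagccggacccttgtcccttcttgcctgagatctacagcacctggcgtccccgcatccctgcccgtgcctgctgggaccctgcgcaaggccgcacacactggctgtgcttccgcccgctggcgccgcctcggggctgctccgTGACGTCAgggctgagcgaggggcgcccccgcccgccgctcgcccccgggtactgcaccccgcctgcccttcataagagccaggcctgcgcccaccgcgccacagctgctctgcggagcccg
Scg2: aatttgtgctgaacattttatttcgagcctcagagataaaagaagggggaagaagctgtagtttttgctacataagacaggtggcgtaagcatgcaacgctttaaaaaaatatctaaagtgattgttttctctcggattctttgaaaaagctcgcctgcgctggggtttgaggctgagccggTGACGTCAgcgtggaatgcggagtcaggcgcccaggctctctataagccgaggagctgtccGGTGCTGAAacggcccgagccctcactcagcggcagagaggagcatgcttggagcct

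The full element began 72 bases before the start in Chgb and 68 bases before it in Scg2. Chga held the core, 44 bases before its start, where the window reads TGACGTAA rather than TGACGTCA. The search took exact matches only, so such near matches to the full element were not counted. Slc18a2 was the third member with the full element, which spanned its start. The full element was found in 1.79% of all 32851 windows and the core in 20.8%, against 3 and 6 members, with Scg3 and Ptprn the other carriers of the core. The composite letters TGATGCAA and TGACGCAA, which ATF4 can bind together with C/EBP proteins, occur in 0.895% and 0.49% of windows. The first was in no member, and the second was in Ptprn, 117 bases before its start. TTCAGCACC was found in 0.371% of windows and in 2 members, Scg2 and Ptprn2. Stretches of 80 bases around these letters are given for Ptprn2 (chr12:116485690-116485769, plus strand), with the REST element letters in capitals, for Slc18a2 (chr19:59260838-59260917, plus strand), with the full CRE in capitals, and for Ptprn (chr1:75264282-75264361, minus strand), with the composite and a second core in capitals.

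Ptprn2: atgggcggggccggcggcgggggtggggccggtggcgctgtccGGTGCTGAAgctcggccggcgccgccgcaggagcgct
Slc18a2: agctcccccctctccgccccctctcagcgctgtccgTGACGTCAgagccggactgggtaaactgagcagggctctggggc
Ptprn: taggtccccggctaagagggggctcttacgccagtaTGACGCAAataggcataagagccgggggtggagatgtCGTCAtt

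A match of letters is a description of the window and does not show that a factor binds there. Sv2a and Nnat held none of the letters searched.

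The members did not move together. Chga, Sv2a, Ptprn2 and Nnat fell in TG islets, Chgb and Scg2 rose, and Scg3, Vgf, Ptprn and Slc18a2 did not pass the test. That is 6 of 10 called in either direction at an adjusted p under 0.05 (edgeR quasi-likelihood test, Benjamini-Hochberg adjustment over all tested genes), where 20.1% of all tested genes were called. The 4 lower calls stand beside 8.06% of all tested genes called lower, and the 2 higher calls beside 12.1% called higher. The median log2 fold change was −0.13 over the members and −0.0019 over all tested genes. When the mean level of endothelial and of mural and stromal markers was a covariate, 0 of the 6 calls remained by edgeR, and each of the 6 kept its sign. In that fit 3 members, Chga, Scg2 and Nnat, had an unadjusted p under 0.05. In bulk islet RNA, fewer cells of a type and less RNA per cell cannot be told apart.

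**Figure D1:**
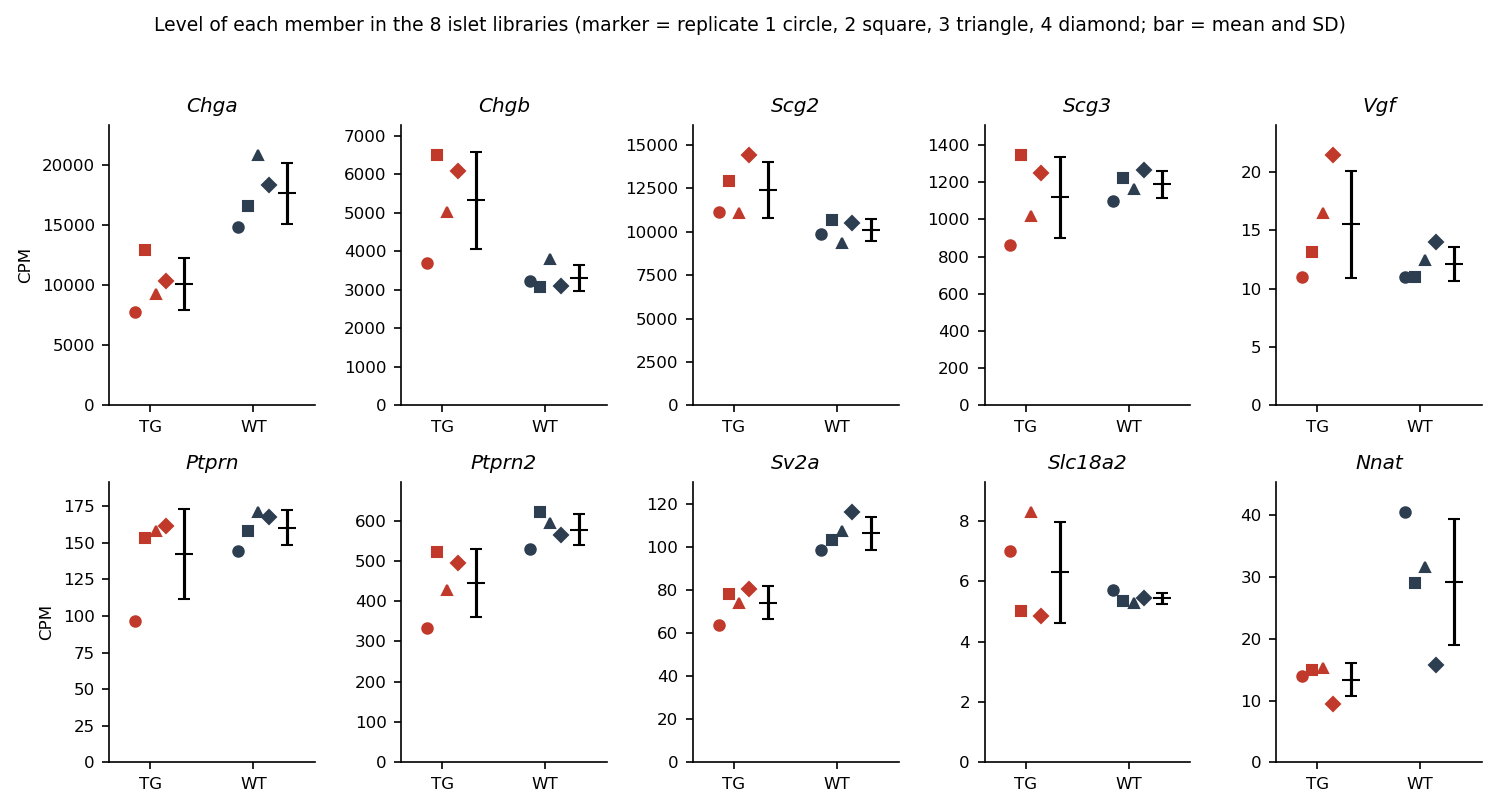
Level of each member in library-scaled counts (CPM, vertical axis from 0) in the 4 TG and 4 WT libraries, with the mean and SD beside the points. The TG points of Chga, Sv2a, Ptprn2 and Nnat all lie below the WT points, those of Scg2 all lie above, and TG replicate 1 is the lowest TG library for 7 of the 10 genes.

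Chga, which encodes chromogranin A, the granin that gives rise to pancreastatin, fell 1.75-fold. It measured 7779, 12871, 9285 and 10301 CPM in TG replicates 1 to 4, against 14779.9, 16563, 20791 and 18291 CPM in WT replicates 1 to 4. Each TG library lay below each WT library, and the nearest pair were TG replicate 2 and WT replicate 1. The means were 10059 ± 2142 CPM in TG libraries and 17606 ± 2562 CPM in WT libraries (SD, n = 4 each), a log2 fold change of −0.81 (SE 0.15, adjusted p = 0.00176, edgeR). Over the other settings tried the log2 fold change lay between −0.95 and −0.70, and the vascular and stromal fit gave −0.93 (adjusted p = 0.165).

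Chgb, which encodes chromogranin B, the relative of Chga that also condenses in granules, rose 1.61-fold. Its levels were 3696, 6496, 5009 and 6082 CPM in TG libraries, against 3238, 3070.0, 3794 and 3097 CPM in WT libraries. The groups overlapped by a single library, TG replicate 1, which fell just below WT replicate 3 and above the other WT libraries. Chgb averaged 5321 ± 1251 CPM in TG libraries and 3299.8 ± 338 CPM in WT libraries (SD, n = 4 each), with a log2 fold change of 0.69 (SE 0.15, adjusted p = 0.00645, edgeR). The covariate fit gave 0.58 (adjusted p = 0.573).

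The chromogranins also differed in their change within libraries, where scaling to library size plays no part. Such a ratio shows that Chga and Chgb changed differently, while their opposite directions rest on the scaled levels above. There were 2.10, 1.98, 1.85 and 1.69 Chga counts per Chgb count in TG replicates 1 to 4, against 4.56, 5.39, 5.48 and 5.91 in WT replicates 1 to 4. The ratio was 2.79-fold lower in TG libraries, a difference of −1.48 in mean log2 ratio, and the groups were far apart relative to their spread (SD 0.134 in TG and 0.157 in WT on the log2 scale, n = 4 each). An exact two-sided permutation test over 70 arrangements gave p = 0.0286, the smallest value this design allows, and 0.0357 after adjustment over the 5 pairs compared. The difference was between −1.56 and −1.43 with any single library left out.

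**Figure D2:**
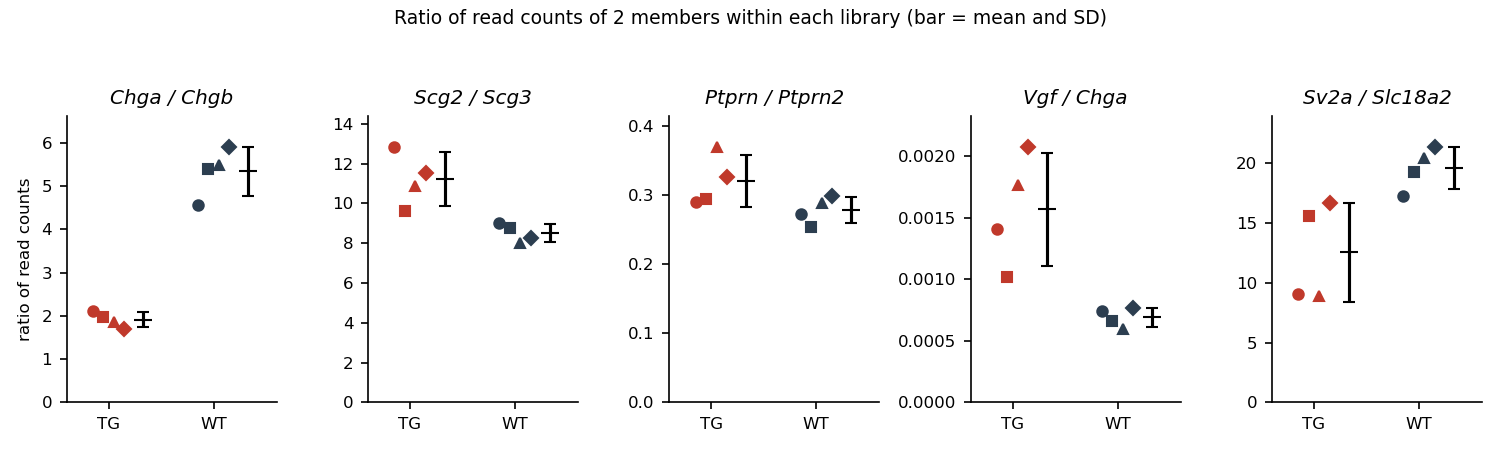
Read counts of 1 member divided by those of another within each library (vertical axes from 0), with the mean and SD beside the points. Chga over Chgb lies between 1.69 and 2.10 in TG libraries and between 4.56 and 5.91 in WT libraries, and the ratio of Ptprn to Ptprn2 is the only 1 of the 5 whose groups overlap.

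Scg2, which encodes secretogranin II, the precursor of secretoneurin, was called higher by a small margin. Its levels were 11105, 12922, 11073 and 14409.9 CPM in TG libraries, against 9893, 10684, 9329 and 10472 CPM in WT libraries. The lowest TG library exceeded the highest WT library by less than the SD of either group. The means were 12378 ± 1607 CPM in TG libraries and 10095 ± 610.1 CPM in WT libraries (SD, n = 4 each), with a log2 fold change of 0.29 (SE 0.099, adjusted p = 0.0476, edgeR). The call of Scg2 did not hold under 11 of 19 other settings. It was lost when any library other than TG replicate 1 was left out (0.27, 0.31 and 0.18 when TG replicates 2, 3 and 4 were left out, and 0.28, 0.32, 0.25 and 0.31 when WT replicates 1, 2, 3 and 4 were).

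Scg3, which encodes secretogranin III, a granin that binds chromogranin A and the cholesterol-rich granule membrane, was not called. It measured 864, 1346, 1016 and 1249 CPM in TG libraries, against 1099.7, 1221, 1166 and 1265 CPM in WT libraries. The TG libraries spanned the whole WT range on both sides, with means of 1119 ± 219 CPM in TG libraries and 1188 ± 71.5 CPM in WT libraries (SD, n = 4 each). The log2 fold change was −0.09 with a 95% interval from −0.35 to 0.17 (adjusted p = 0.689, edgeR). Relative to Scg3, Scg2 was higher, at 9.60 to 12.9 Scg2 counts per Scg3 count in TG libraries against 8.0 to 9.0 in WT libraries (difference in mean log2 ratio 0.39, exact permutation test, two-sided, p = 0.0286, 0.0357 adjusted over 5 pairs).

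Vgf, a neurotrophin-inducible granule protein that is cut into several peptides, was the granin with the fewest reads, between 203 and 376 counts a library. Levels were 11, 13.1, 16.4 and 21.4 CPM in TG libraries, against 11, 11, 12.4 and 14.0 CPM in WT libraries. The highest values were in TG replicates 4 and 3, and the other TG libraries lay within the WT range or, for replicate 1, at its lower edge. The log2 fold change was 0.36 with a 95% interval from −0.04 to 0.76 (adjusted p = 0.211, edgeR). Set against Chga within libraries, Vgf was 2.20-fold higher in TG libraries (difference in mean log2 ratio 1.14, exact permutation test, two-sided, p = 0.0286, 0.0357 adjusted over 5 pairs), with no overlap between groups. Chga itself fell (log2 fold change −0.81), so this ratio does not show a rise of Vgf.

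The 5 granins together took nearly the same share of the islet transcriptome in both groups. They held 2.39%, 3.38%, 2.82% and 3.29% of gene counts in TG replicates 1 to 4, against 2.68%, 3.12%, 3.37% and 3.28% in WT replicates 1 to 4. The means, 2.97% ± 0.457 in TG libraries and 3.11% ± 0.308 in WT libraries (SD, n = 4 each), differed by less than the SD of either group. What differed was the make-up of the share. Per kilobase of annotated exon, Scg2 had the highest mean level of the members in TG libraries, at 4922 CPM per kb, followed by Chga at 3650 and Chgb at 1942 CPM per kb. In WT libraries the order was Chga at 6388, Scg2 at 4014 and Chgb at 1204 CPM per kb. Scg3 followed far behind, at 409 CPM per kb in TG libraries and 434 in WT libraries, and Vgf stood at 5.21 CPM per kb in TG libraries and 4.06 in WT libraries. By mean CPM, with no correction for length, Chga ranked 6 and Scg2 ranked 4 among all genes in TG libraries, against 5 and 8 in WT libraries.

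Sv2a, the synaptic vesicle glycoprotein 2A of secretory vesicle membranes, fell 1.43-fold. It measured 63.8, 78.4, 74.0 and 80.8 CPM in TG libraries, against 98.6, 103, 108 and 116 CPM in WT libraries. No TG library reached the lowest WT library. The means were 74.3 ± 7.51 CPM in TG libraries and 107 ± 7.57 CPM in WT libraries (SD, n = 4 each), with a log2 fold change of −0.52 (SE 0.094, adjusted p = 0.00117, edgeR). Sv2a and Chga kept their calls with any single library left out, and Sv2a lost its call with the vascular and stromal covariate (−0.42, adjusted p = 0.479).

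Ptprn2, which encodes IA-2 beta or phogrin, was called lower, and its relative Ptprn, which encodes IA-2, was not called. Ptprn2 levels were 334, 522, 428 and 495 CPM in TG libraries, against 530.3, 621, 593 and 564 CPM in WT libraries. The highest TG library lay just below the lowest WT library. The means were 445 ± 83.5 CPM in TG libraries and 577 ± 38.9 CPM in WT libraries (SD, n = 4 each). The log2 fold change of Ptprn2 was −0.38 (SE 0.12, adjusted p = 0.0383, edgeR). The call was lost without TG replicate 1 (−0.26), TG replicate 3 (−0.39), WT replicate 2 (−0.34), WT replicate 3 (−0.37) or WT replicate 4 (−0.39), with acinar markers as a covariate (−0.31, adjusted p = 0.105) and in the vascular and stromal fit (−0.21, adjusted p = 0.857).

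Ptprn measured 96.6, 153, 158 and 161 CPM in TG libraries, against 145, 158, 171 and 168 CPM in WT libraries. TG replicate 1 stood far below the other TG libraries, which lay within the WT range. The log2 fold change was −0.17 with a 95% interval from −0.47 to 0.13 (adjusted p = 0.447, edgeR), and −0.02 without TG replicate 1 (adjusted p = 0.933). The count ratio of Ptprn to Ptprn2 lay between 0.289 and 0.369 in TG libraries and between 0.254 and 0.298 in WT libraries, a difference of 0.20 in mean log2 ratio (exact permutation test, two-sided, p = 0.114, 0.114 adjusted over 5 pairs). A difference between the changes of the IA-2 genes was therefore not shown.

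Slc18a2, which encodes the vesicular monoamine transporter VMAT2 that loads dopamine and serotonin into granules, was the least abundant member, with 85 to 188 counts a library. Its levels were 7.02, 5.02, 8.30 and 4.84 CPM in TG libraries, against 5.70, 5.34, 5.28 and 5.44 CPM in WT libraries. TG libraries lay on both sides of the narrow WT range, replicates 1 and 3 above it and replicates 2 and 4 below it. The log2 fold change was 0.21 with a 95% interval from −0.24 to 0.67 (adjusted p = 0.55, edgeR), so a fall or a rise within that interval remains possible. The SD was 1.66 CPM in TG libraries and 0.186 CPM in WT libraries (n = 4 each). The Sv2a to Slc18a2 count ratio was 8.92 to 16.7 in TG libraries and 17.3 to 21.4 in WT libraries (difference in mean log2 ratio −0.70, exact permutation test, two-sided, p = 0.0286, 0.0357 adjusted over 5 pairs). Sv2a itself fell (log2 fold change −0.52), so this ratio does not show a rise of Slc18a2.

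Nnat, the imprinted gene of neuronatin, which in mouse beta cells interacts with the signal peptidase complex, had the largest fold change of the 10 members, 2.18-fold lower. Its levels were 14.0, 15.0, 15.2 and 9.40 CPM in TG libraries, against 40.5, 29.0, 31.7 and 15.8 CPM in WT libraries. WT libraries spread over a 2.57-fold range, and WT replicate 4 was close to the TG libraries. The means were 13.4 ± 2.73 CPM in TG libraries and 29.2 ± 10.2 CPM in WT libraries (SD, n = 4 each). Nnat differed by −1.12 on the log2 scale (SE 0.26, adjusted p = 0.0141, edgeR). It was −1.14 without TG replicate 1 (adjusted p = 0.0522), and in the vascular and stromal fit −1.63 (adjusted p = 0.237). Nnat lies inside Blcap, which runs on the opposite strand, but in the annotation used here their exons share 0 bases. Blcap measured 14.9 ± 2.84 CPM in TG libraries and 20 ± 1.79 CPM in WT libraries (SD, n = 4 each), with a log2 fold change of −0.42 (adjusted p = 0.0558, edgeR). No source used here says whether counting was strand-aware, so reads of overlapping transcripts on opposite strands cannot be told apart. Exon bases are shared with opposite-strand genes by Ptprn (189, with Gm28294), Slc18a2 (111, with Gm29261) and Nnat (87, with Gm23134).

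**Figure D3:**
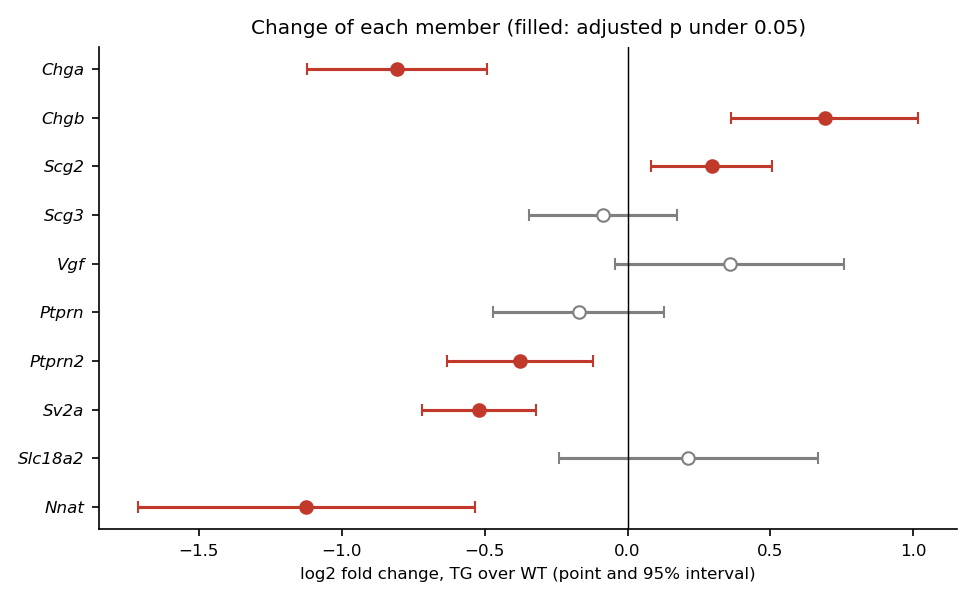
Log2 fold change of TG over WT for each member (horizontal axis) with its 95% interval from the edgeR fit, filled where the adjusted p is under 0.05. Chga (−0.81) and Nnat (−1.12) lie furthest below 0 and Chgb (0.69) furthest above it, and the intervals of Scg3, Vgf, Ptprn and Slc18a2 include 0.

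Of 7 hormone genes whose products are packed in these granules, 3 fell (Ins1, Ins2 and Iapp), 1 rose (Pyy) and 3 were not called. Counts for this list and those below stand beside 8.06% of all tested genes called lower and 12.1% called higher. Ins2 stood at 33580 ± 2956 CPM in TG libraries and 69622 ± 9106 CPM in WT libraries (SD, n = 4 each; log2 fold change −1.05). Ins1 had a log2 fold change of −1.59 and Iapp, the islet amyloid peptide gene, of −0.58. Because Ins1 and Ins2 are near copies, how reads divide between them is uncertain. Glucagon (Gcg, 0.42, adjusted p = 0.261), somatostatin (Sst, −0.08, adjusted p = 0.653) and pancreatic polypeptide (Ppy, 0.14, adjusted p = 0.431) were not called (edgeR). Pyy, the peptide YY gene, was called higher (0.27, adjusted p = 0.0461), a call lost under 12 other settings, among them every single library left out except WT replicate 1 (0.20 without WT replicate 4). Counted per 1000 reads of Ins1 and Ins2, Chgb stood at 94.9 to 159.9 in TG libraries against 31.9 to 45.7 in WT libraries, and Scg2 at 272 to 379 against 97.5 to 122. On that scale Chga stood at 199.7 to 271 in TG libraries and 146 to 251 in WT libraries, and Nnat at 0.247 to 0.419 and 0.183 to 0.399, so the groups overlapped for these members. The other 8 members were all higher per insulin read in each TG library than in each WT library. Scg3 and Ptprn, not called above, were among them, with mean levels on that scale 2.08 and 1.98 times those of WT libraries. The share of all genes with that pattern was not counted, so it is not a result about the members. The denominator itself differed on that scale, with Ins1 and Ins2 at 4.13% ± 0.427 of gene counts in TG libraries and 8.63% ± 0.574 in WT libraries (SD, n = 4 each).

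Of 22 tested genes of granule biogenesis and sorting, 4 were lower and 2 higher, with a median log2 fold change of −0.25. Cadps, a priming factor of dense-core granules, had a log2 fold change of −0.54 (SE 0.079), and its paralog Cadps2 one of 0.81 (SE 0.12), at 171 ± 3.46 CPM in TG libraries against 248 ± 16.9 CPM in WT libraries for Cadps and 69.6 ± 7.95 CPM against 39.8 ± 5.82 CPM for Cadps2 (SD, n = 4 each). Ica1l, a relative of islet cell autoantigen 1 that takes part in granule formation, was lower (−1.36, SE 0.28), but its log2 fold change was −0.29 with the vascular and stromal covariate (adjusted p = 0.882). Baiap3, a protein of granule trafficking, was also lower (−0.57, SE 0.14). The other 16 genes of this list did not pass the test.

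Of 16 other granule membrane and docking proteins, 5 were lower and 1 higher (median −0.18). The zinc transporter Slc30a8, which fills insulin granules with zinc, was at 282 ± 39.2 CPM in TG libraries and 866 ± 85.8 CPM in WT libraries (SD, n = 4 each), and its log2 fold change of −1.62 had an adjusted p of 1.18e-07 by edgeR (SE 0.11). The granule GTPase Rab37 (−1.35, SE 0.11) and the zinc-binding vesicle protein Tmem163 (−1.26, SE 0.17) were also lower. Sv2c, a paralog of Sv2a, was the gene called higher (0.87, SE 0.19), so the SV2 genes changed in opposite directions, with Sv2b at 0.11 and not called. Of 13 genes of granule acidification, the proton pump and its partners, 1 was higher, Tcirg1 (0.53), and 1 was lower, Atp6v0a1 (−0.35). Over all tested genes 20.1% were called in either direction, so these calls do not set the list apart. Atp6v0a1 lost its call without TG replicate 1 (−0.26) and without WT replicate 4 (−0.31).

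Most of the genes that process granule cargo were lower. Of 6, 4 fell and 0 rose (median −0.37), among them Pcsk1, the first prohormone convertase, at 525 ± 61.6 CPM in TG libraries and 1049.7 ± 53.6 CPM in WT libraries (SD, n = 4 each). Carboxypeptidase E (Cpe) was at −0.43, and Pcsk1n, which encodes the granin-like convertase inhibitor proSAAS, was at −0.52 and −0.44 without WT replicate 2 (adjusted p = 0.0568). Pcsk2 was at −0.32 and lost its call without TG replicate 1 (−0.28), TG replicate 3 (−0.32), WT replicate 1 (−0.29) or WT replicate 2 (−0.32). Scg5, whose product 7B2 is a chaperone of the second convertase, was at −0.21 and not called (adjusted p = 0.152, edgeR). Pam, the remaining gene of the list, was at 0.15 and not called (adjusted p = 0.301, edgeR).

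Several genes of monoamine handling, the pathway VMAT2 serves, were called. Of 10 tested genes, 4 were lower and 1 higher (median −0.52). Ddc, which makes dopamine and serotonin from their precursors, was at 94.5 ± 11.5 CPM in TG libraries and 272 ± 19.2 CPM in WT libraries (SD, n = 4 each; log2 fold change −1.52, SE 0.098). Maob, a monoamine-degrading enzyme, was at −1.46 (SE 0.089), and Gch1, which supplies the cofactor of tyrosine and tryptophan hydroxylation, at −0.73 (SE 0.11), while Maoa, the paralog of Maob, rose by 0.57 (SE 0.13). Of 6 genes of the signal peptidase and its neuronatin setting, 1 was lower, Spcs3 (−0.39, SE 0.084), a subunit of the complex, and 0 were higher.

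Among 14 regulators of neuroendocrine genes, 7 were lower and 1 higher (median −0.39). Neurod1 (−0.88), St18 (−0.65), Nkx2-2 (−0.78) and Pax6 (−0.45), all transcription factors of endocrine cells, had the lowest adjusted p-values. The gene called higher was Rest, whose product represses neuronal and endocrine genes and whose element letters are in the Scg2 and Ptprn2 windows shown above. Rest measured 22.8, 14.2, 23.2 and 18.4 CPM in TG libraries, against 8.74, 5.67, 13.1 and 4.4 CPM in WT libraries (log2 fold change 1.29, SE 0.31, adjusted p = 0.0162, edgeR). Its log2 fold change was −0.25 with the vascular and stromal covariate (adjusted p = 0.884). Creb1, whose product binds the CRE, stood at −0.003 and was not called (adjusted p = 0.985, edgeR). Its relative Crem, in the same list, was called lower (−0.47, SE 0.13, adjusted p = 0.0187, edgeR), with each TG library below each WT library. Of the 28 called genes named by rule from these lists, 4 kept their call with the vascular and stromal covariate. These were Slc30a8 (−1.18), Rab37 (−1.15), Ddc (−1.66) and Maob (−1.66). The log2 fold changes of Iapp and Tcirg1, whose calls were lost, were −0.11 and 0.017 in that fit.

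Markers of other cell types differed between the groups along with these results. Endothelial markers were higher for 10 of 10 genes, with a summed level of 1261 to 1316 CPM in TG libraries and 537 to 918 CPM in WT libraries. Mural and stromal markers were higher for 6 of 10, at 3348 to 6485 CPM in TG libraries and 844 to 2798 CPM in WT libraries, macrophage markers for 8 of 10, at 206 to 491 CPM and 113 to 183 CPM, and ductal markers for 6 of 8, at 1069 to 1383 CPM and 564 to 657 CPM. Schwann cell and nerve markers counted 2 of 8 higher and 1 lower, at 103 to 124 CPM in TG libraries and 73.9 to 102 CPM in WT libraries. All 10 beta-cell markers were lower, with sums of 50093 to 64198 CPM in TG libraries and 103120.0 to 123756 CPM in WT libraries.

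For the endocrine cells other than beta cells, which also make granins, few markers were called. Of 9 alpha-cell markers 1 was higher, Slc38a5 (0.49, and 0.39 without WT replicate 4, adjusted p = 0.0722, with the call also lost without TG replicate 1, 2 or 3 or WT replicate 2). Fev was not called but had an unadjusted p under 0.05 (1.06, edgeR), at a mean of 2.46 CPM in TG and 1.18 CPM in WT libraries. The alpha-cell sum was 28441 to 48781 CPM in TG libraries and 19900.4 to 36545 CPM in WT libraries. Of 5 tested delta-cell markers 0 were called by edgeR, with 1 at an unadjusted p under 0.05 (Hhex, 0.44), and their sum was 3489 to 4193 CPM in TG libraries and 3623 to 4741 CPM in WT libraries. PP-cell markers counted 1 of 2 higher, at 6903 to 8818 CPM and 5659 to 7463 CPM, and acinar markers 0 of 10, at 6865 to 43738 CPM and 1354 to 13267 CPM. No defining marker of these lists was at 0 in all libraries. Beyond the fits with acinar and with vascular and stromal markers, the part of these cell types in the members' changes was not tested.

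**Figure D4:**
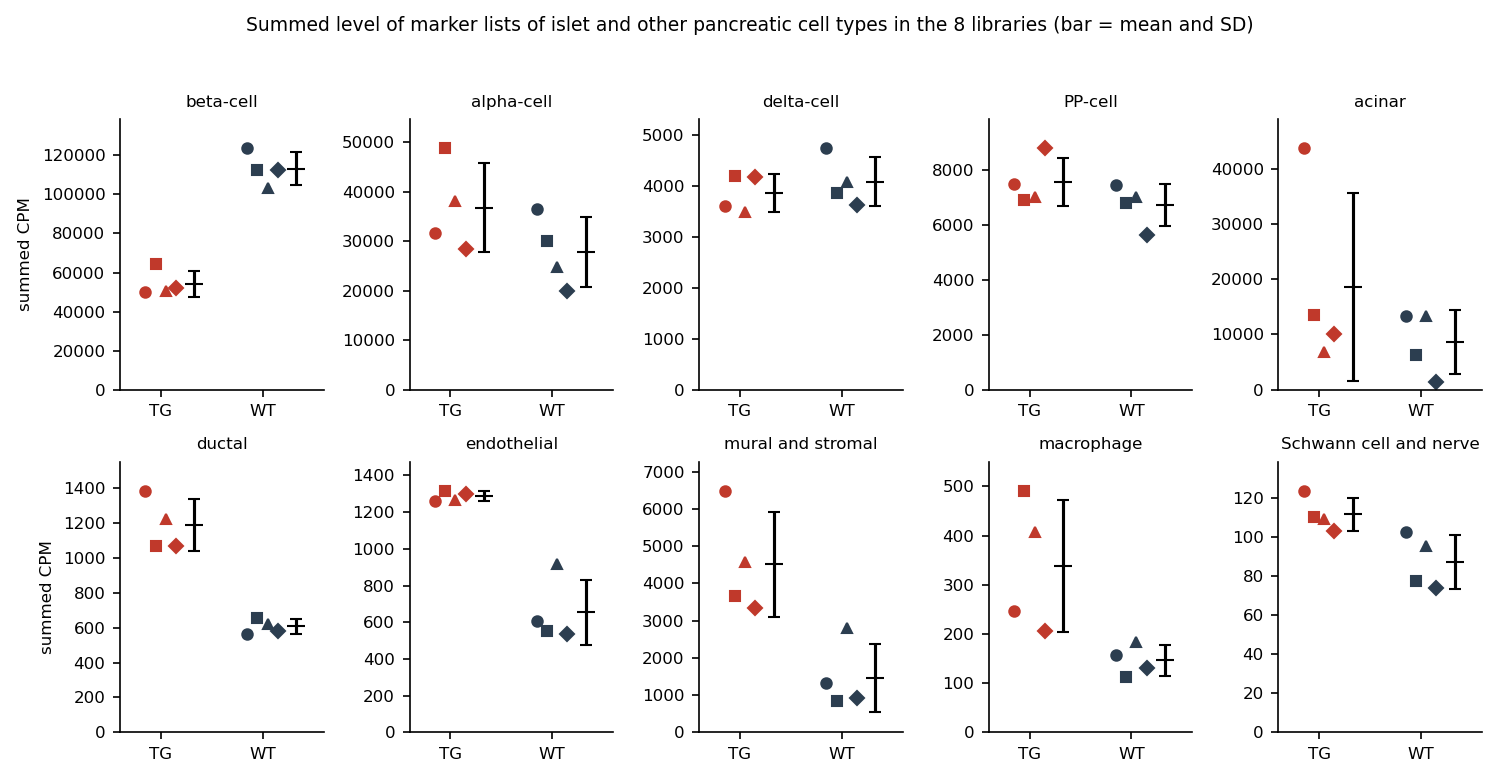
Summed CPM of 10 marker lists (vertical axes from 0) in the 4 TG and 4 WT libraries, with the mean and SD beside the points. Ductal, endothelial, mural and stromal, macrophage and Schwann cell sums are higher in each TG library than in each WT library, the beta-cell sum is lower in each, and the alpha-cell, delta-cell, PP-cell and acinar sums overlap.

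Across settings the members fell into those with a steady call and those without. Chga, Chgb and Sv2a were called in 18 of 19 other settings and Nnat in 17, whereas Ptprn2 was called in 11 and Scg2 in 8. Scg3, Vgf, Ptprn and Slc18a2 were called in 0 of 19, and at an unadjusted p under 0.05 by 0 of these in the fit reported above. Groups did not overlap, with all TG below all WT, for 4 members, where 9.94% of all tested genes showed that pattern.

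**Figure D5:**
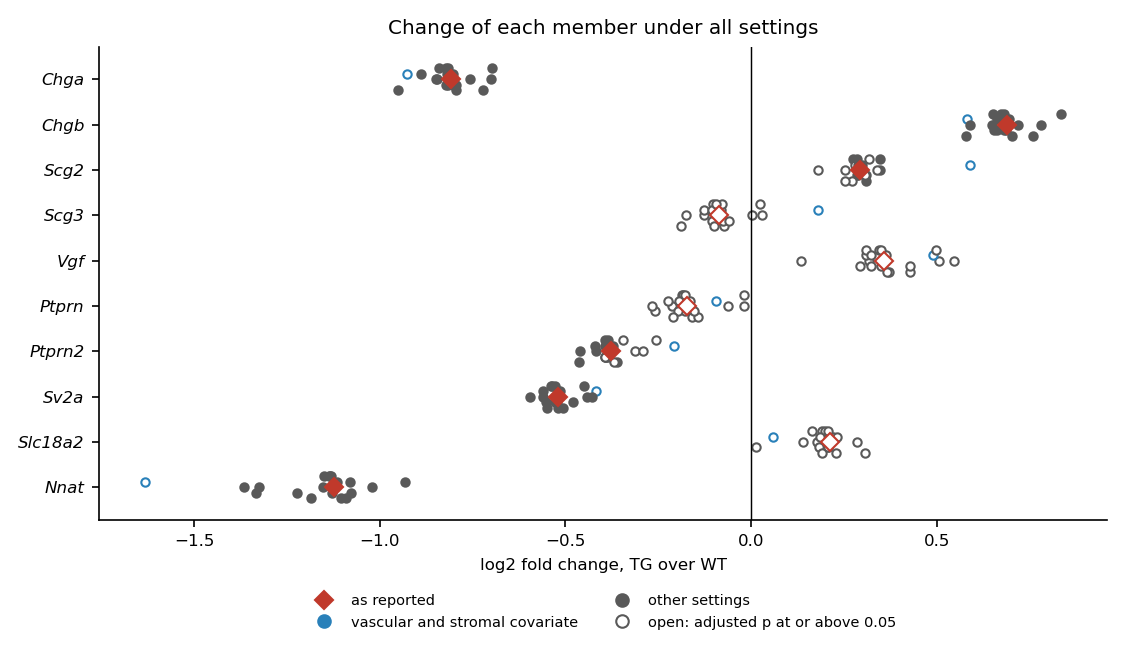
Log2 fold change of TG over WT for each member (horizontal axis) as reported (diamonds) and under each other setting (circles), filled where the adjusted p was under 0.05. With the vascular and stromal covariate (blue) no member is called, and the signs of Chga, Chgb, Scg2, Ptprn2, Sv2a and Nnat are the same in all settings shown.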

How the data were processed

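RNA was sequenced from islets of 4 TG and 4 WT samples, grouped by the genotype in the labels. The deposited files hold raw counts per gene, 1 file a library. The submitters' processing notes name STAR 2.7.10a, HTSeq 0.11.3 and mm39. No source used here gives the strand setting. Entries that name no gene were left out of library sizes: 25.3% to 31.5% of reads were assigned to no feature and 3.74% to 4.36% were ambiguous. Gene symbols were paired with 52081 of 55414 identifiers.

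From these counts, genes were filtered (edgeR filterByExpr, minimum count 10), scaled by TMM and tested by edgeR 4.0.16's robust quasi-likelihood test (R 4.3.3) without a replicate block, with Benjamini-Hochberg adjustment over 20509 genes. A gene is called at an adjusted p under 0.05. The fit was tested on simulated data. CPM values use effective library sizes, and levels per kilobase use exon lengths of a GRCm38 annotation. Count ratios of 5 pairs were tested by exact permutation. A floor of 3 counts equals 0.133 to 0.182 CPM a library, and floors cover counting error only. Replicates differed by far more than sampling noise (chi-square per gene 16.9 to 56.7). Each was counted as its own sample, though such a spread does not show that the samples are different animals.

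Alternatives were other scalings, filters, DESeq2 1.42.0, limma 3.58.1 (voom), marker covariates, the replicate block and leaving out libraries. Named beside the members were up to 4 genes of each other list with the lowest adjusted p, the islet hormones, Rest and Blcap. Sv2b, Scg5, Pam, Creb1 and Crem fall outside that rule and were named after their values were seen. The members and lists were chosen with earlier results of these data known.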

Additional observations from a re-analysis of the deposited data

Results flagged for a closer look

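Ptprn in TG replicate 1 stood at 96.6 CPM, far from the other TG libraries, which lay between 153 and 161 CPM. Its gap to the nearest of them, divided by the range of the group, exceeded Dixon's 95% critical value for 4 samples. This was the only 1 of 30 groups of values examined that did so, and chance flags about 1 group in 20. TG replicate 1 was also the lowest TG library for 7 of the 10 members and held the largest acinar marker sum, 43738 CPM, against 6865 to 13571 CPM in the other TG libraries. The part of acinar RNA in the low value was not tested.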

How the results depend on the processing

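With vascular and stromal markers as a covariate, 123 genes were called higher and 196 lower, against 2475 and 1654 as reported. Of the members, 0 were then called higher and 0 lower, and the log2 fold changes of Rest (−0.25) and of the mural marker Rgs5 (−0.0068) turned negative. The covariate follows the genotype, and the median SE over all genes was 0.411 with it and 0.207 without it. Members called higher numbered 1 with median-of-ratios scaling, 1 with upper-quartile scaling and 1 without TG replicate 1 and WT replicate 4 together, a setting chosen after seeing the data that called 1509 genes higher. With single libraries left out, 1 to 2 members were called higher and 2 to 4 lower, and over all genes 1691 to 2622 were higher (1509 with that pair left out) and 1122 to 2131 lower. The differences in mean log2 ratio then lay between −1.56 and −1.43 for Chga over Chgb, 0.33 and 0.47 for Scg2 over Scg3, 0.12 and 0.24 for Ptprn over Ptprn2, 0.99 and 1.33 for Vgf over Chga, and −0.85 and −0.55 for Sv2a over Slc18a2, where the smallest possible p is 0.0571. The cause of these shifts was not tested. Deviations of same-numbered TG and WT libraries were hardly correlated (−0.03, 0.08, 0.02 and 0.0079). So few pairs cannot decide whether the numbers pair samples, and the labels do not say. The median SE over all genes was 0.188 with a replicate block, against 0.207 without it. With a replicate block 2769 genes were higher and 1904 lower, members counted 2 higher and 4 lower, and no member's call changed. An exact sign-flip test within such pairs cannot go below p = 0.125. Depth is lowest for Slc18a2, Nnat and Vgf, with as few as 85, 165 and 203 counts a library.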
